A study of Rattus norvegicus with 61 samples.

Results

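CD4 T cells and CD8 T cells sorted from rat spleen were compared across the transcriptome. The 12 samples of these 2 cell types, 6 of each, were taken by their column names from the 61 samples of the series. The series sequenced RNA of 6 sorted immune cell types, of whole spleen, of whole blood cells (WBC) and of liver, to give rat reference profiles for estimating the immune cell make-up of a tissue from its RNA. All 12 samples came from untreated, wild-type male Sprague-Dawley rats, which the methods describe as 6 weeks old. CD4 T cells were gated as CD45+/CD11b-/CD3+/CD4+ and CD8 T cells as CD45+/CD11b-/CD3+/CD8a+, with dead cells removed by a dye. As written, neither gate excludes the other coreceptor. The labels do not say whether the 6 samples of a type came from separate animals, so the p-values measure the spread between these samples, which may be technical. The transcripts carry identifiers that the files do not pair with gene names, and the sorting antigens and T cell markers could therefore not be checked.

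CD4 and CD8 T cells develop from a shared precursor in the thymus and both read peptides through a T cell receptor. CD4 T cells recognise peptides on MHC class II and help B cells, macrophages and other T cells through contact and cytokines, whereas CD8 T cells recognise peptides on MHC class I and can kill the cell that presents them. Natural killer (NK) cells share much of the killing machinery of CD8 T cells, and rat NK cells also carry CD8a, so that the CD3 gate is what keeps them apart.

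The 2 T cell types were sequenced alike. The total estimated count was 10024234 to 12281799 in the CD4 T cell samples, with a median of 11126973, and 9993834 to 13282944 in the CD8 T cell samples, with a median of 11094102. Between 17579 and 18090 transcripts were above 0 in a CD4 T cell sample and between 17450 and 18049 in a CD8 T cell sample. The 10 most abundant transcripts held 10.6 to 12.9% and 10.6 to 12.5% of the total. None of these 3 measures passed a two-sided exact permutation test over the 924 splits of 6 against 6, with p-values of 0.864, 0.496 and 0.485 and adjusted values of 0.864, 0.744 and 0.744 over the 3 tests. The smallest p that this test allows is 0.00216. No pair among the 66 pairs of the 12 samples held identical values.

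Replicate 5 of both types was more like the B cells than like its own type. Across 14172 transcripts, Pearson's r of log2(CPM + 1), with CPM the count scaled to a sample total of 1000000, was higher between CD4 T cell replicate 5 and the mean of the B cell samples (0.981) than between it and the mean of the other CD4 T cell samples (0.968). CD8 T cell replicate 5 correlated with the B cell mean at 0.982 and with the other CD8 T cell samples at 0.961. The other T cell samples correlated with the B cell mean at 0.935 to 0.971 for CD4 and 0.935 to 0.968 for CD8. NK cell replicate 5 was also most like the B cells, with an r of 0.978. Of the other 10 T cell samples, 8 were most like their own type, while CD4 T cell replicate 4 was most like the CD8 T cells (0.982) and CD8 T cell replicate 2 most like the CD4 T cells (0.972). These correlations run across transcripts within samples, which are not independent replicates. Replicate 5 had the most transcripts above 0 in both types, but by Dixon's criterion it was no outlier in this number, in the correlations or in the list sums that follow, with gaps of at most 0.583 of the range of its type against a critical value of 0.625. The results are given with all 12 samples and again without replicate 5 of each type.

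Transcripts of the other sorted cells were followed through lists made without any T cell sample. Each held transcripts with at least 20 CPM in B cells, NK cells, monocytes or neutrophils and at least 2-fold the level of each of the other 3 types, with 1 CPM added to both levels. The 72 transcripts of the B cell list summed to 2060, 1981, 4093, 4562, 5957 and 4170 CPM in CD4 T cell replicates 1 to 6, and to 2464, 2397, 4667, 3337, 6496 and 3182 CPM in CD8 T cell replicates 1 to 6. Replicate 5 was the highest of its type in both series, and its sums came close to the lowest B cell sample, as the B cell samples ranged from 6538 to 15366 CPM. The monocyte list, of 316 transcripts, was also highest in replicate 5 of both types, at 9970 and 10223 CPM against at most 8867 and 9403 CPM in the others. The neutrophil list, of 337 transcripts, was highest in the same samples, at 12446 and 12750 CPM. Replicate 5 was thus the highest sample of both types on these 3 lists. On the NK list, of 136 transcripts, it was the highest of the CD4 T cell samples at 5840 CPM but the second lowest of the CD8 T cell samples at 6506 CPM. Whether cells of another type were present in these samples was not tested.

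Few transcripts parted CD4 from CD8 T cells. Of 13982 transcripts that averaged 1 CPM or more over the 12 samples, 126 (0.901%) differed at an adjusted p-value under 0.05 by edgeR's quasi-likelihood test with Benjamini-Hochberg adjustment. Of these, 64 (0.458%) were higher in CD8 T cells and 62 (0.443%) were higher in CD4 T cells. DESeq2 called 294 transcripts, and edgeR called 2 when tested for a difference beyond 1.5-fold. At an unadjusted p under 0.05 there were 1215 transcripts, or 8.69%. The smallest adjusted p-value was 0.00536. The 2 directions were thus about equal in number, and both were a small part of what was measured.

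The differences were also small for most transcripts. The median size of the log2 fold change over all transcripts tested was 0.12. Of all transcripts, 93.7% differed by less than 1.5-fold and 97.9% by less than 2-fold. A fitted difference of at least 2-fold was found for 291 transcripts, of which 234 were not called. At 4-fold or more there were 49 transcripts, and 39 of these were not called. Of those 39, 32 were listed at 0 in 6 or more of the 12 samples. All 15 transcripts with a fitted difference over 64-fold were above 0 in at most 3 of the 12 samples, and 0 of them were called by edgeR. The largest fitted differences thus rested on transcripts seen in a few samples.

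How far a difference could have been seen was read from its 95% interval. For 11362 transcripts (81.3%) the interval lay wholly within 2-fold in either direction, and for 8476 (60.6%) it lay within 1.5-fold. For 2517 transcripts that were not called, the interval reached 2-fold, so a difference of that size lay within the interval. The median half-width of the interval was 0.32 on the log2 scale. The limit fell mostly on low transcripts: 40.8% of the 2318 transcripts at 1 to 3 CPM had an interval within 2-fold, compared with 93.5% of the 4190 at 10 to 30 CPM and 95% of the 1102 over 100 CPM.

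**Figure D1:**
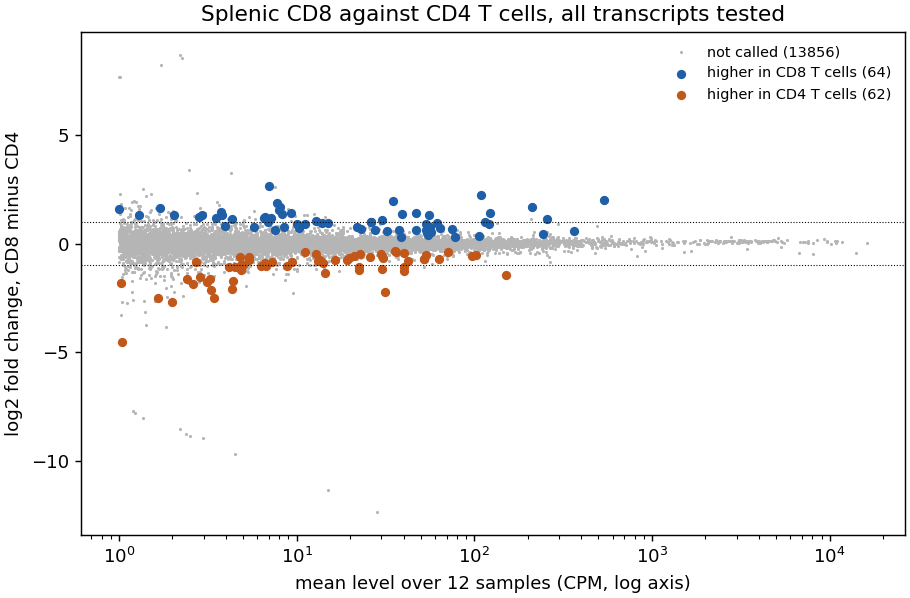
Each point is 1 of the 13982 transcripts tested, with its mean level over the 12 T cell samples (CPM, log axis) against its fitted log2 fold change of CD8 over CD4 T cells; coloured points are the 126 called transcripts, 64 higher in CD8 and 62 higher in CD4 T cells. The cloud is centred on 0 and widens at low levels, and the points farthest from 0 are not called.

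The called transcripts had mean levels of 1.01 to 535 CPM, while the transcripts tested reached 16263 CPM. Their share was 0.604% at 1 to 3 CPM, 1.07% at 3 to 10 CPM, 0.621% at 10 to 30 CPM, 1.28% at 30 to 100 CPM and 1.09% over 100 CPM. The transcripts higher in CD8 T cells had a median level of 24.7 CPM and the transcripts higher in CD4 T cells 13.0 CPM, against 13.2 CPM over all transcripts tested. Among abundant transcripts the directions were unequal in number, with 10 of the 12 called transcripts over 100 CPM higher in CD8 T cells and 2 higher in CD4 T cells.

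The called differences were ones of degree. The median log2 fold change of the transcripts higher in CD8 T cells was 0.98, with a range of 0.30 to 2.63. The median of those higher in CD4 T cells was -0.89, with a range of -4.53 to -0.36. A fitted difference of at least 2-fold was reached by 30 of the 64 and by 27 of the 62, and at least 4-fold by 3 and by 7. Another 20 called transcripts differed by less than 1.5-fold. All 64 transcripts higher in CD8 T cells were above 0 in all 12 samples, as were 61 of the 62 higher in CD4 T cells. None of the 126 was listed at 0 in every sample of the other type.

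Summed together, the 64 transcripts higher in CD8 T cells took 0.334 to 0.571% of the total count in the CD8 T cell samples and 0.211 to 0.285% in the CD4 T cell samples. The lowest CD8 T cell sample and the highest CD4 T cell sample of this sum were both replicate 5. The 62 transcripts higher in CD4 T cells took 0.150 to 0.216% in the CD4 T cell samples and 0.0903 to 0.110% in the CD8 T cell samples, of which replicate 5 was the highest. These sums describe transcripts chosen for the difference and are not a test of it.

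Another reading, not adjusted for the number of transcripts, counted those whose 6 samples of 1 type all lay above all 6 of the other. Some transcripts separate in this way by chance, and their number was not estimated. There were 152 of these (1.09%), with CD8 T cells above for 60 (0.429%) and CD4 T cells above for 92 (0.658%). Of the 126 called transcripts, 91 were separated in this way, 42 with CD8 T cells above and 49 with CD4 T cells above. The rest of the 152 were not called.

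The profiles of the 2 types lay about as far apart as those of samples of 1 type. Between a CD4 and a CD8 T cell sample, the median size of the log2 difference over transcripts was 0.15 to 0.37, with a median of 0.24 over the 36 pairs. Between 2 CD4 T cell samples it was 0.18 to 0.31, with a median of 0.23 over 15 pairs, and between 2 CD8 T cell samples 0.15 to 0.37, with a median of 0.25 over 15 pairs. Without replicate 5 the 3 medians were 0.24, 0.22 and 0.25. The 6 pairs of a CD4 and a CD8 T cell sample with the same number lay nearer to each other, with a median of 0.18. The labels do not say what a number stands for.

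Named transcripts were taken by a fixed rule, the 2 with the largest log2 fold change in each direction among the called transcripts whose types did not overlap. Since these values chose them, they are given as a description. No sequence is shown, because no sequence table used here held these identifiers.

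Among the transcripts higher in CD8 T cells, ENSRNOT00000003248 had the largest fold change. Its level was 14.8, 8.98, 14.2, 17.9, 5.66 and 10.3 CPM in CD8 T cell replicates 1 to 6, a mean of 11.96 ± 4.45 (SD, n = 6). In CD4 T cell replicates 1 to 6 it was 1.53, 1.203, 1.39, 2.85, 2.68 and 2.06 CPM, a mean of 1.95 ± 0.693 (SD, n = 6). The groups did not overlap, and replicate 5 was the lowest CD8 T cell sample. The log2 fold change was 2.63 ± 0.32 (SE), or 6.20-fold, with an adjusted p of 0.00536 by edgeR, and 2.88 without replicate 5 (adjusted p of 0.00229). Its mean was 2.39 CPM in NK cells, 2.79 CPM in B cells, 2.03 CPM in monocytes and 2.14 CPM in neutrophils, so that the CD8 T cells were the highest of the 6 sorted types.

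ENSRNOT00000009392 was more abundant. It measured 220, 268, 164, 194, 62.1 and 170 CPM in CD8 T cell replicates 1 to 6, a mean of 180 ± 69.1 (SD, n = 6). In CD4 T cells it measured 22.4, 36.2, 48.3, 41.8, 45.0 and 36.6 CPM, a mean of 38.4 ± 9.14 (SD, n = 6). The lowest CD8 T cell sample was again replicate 5, at less than the level of every other CD8 T cell sample but above all CD4 T cell samples. The log2 fold change was 2.25 ± 0.30 (SE), or 4.76-fold, with an adjusted p of 0.0062 by edgeR, and 2.47 without replicate 5 (adjusted p of 0.000825). Its means in NK cells (41.5 CPM), B cells (47.1 CPM), monocytes (50.5 CPM) and neutrophils (32.1 CPM) were all near that in CD4 T cells.

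The largest difference in the other direction was that of ENSRNOT00000083593, a rare transcript. Its level in CD4 T cells alone carried it past the filter of 1 CPM. It was at 3.27, 2.15, 2.93, 1.92, 0.706 and 1.16 CPM in CD4 T cell replicates 1 to 6, a mean of 2.02 ± 0.989 (SD, n = 6). In CD8 T cells it was at 0.107 CPM in replicate 1 and 0.328 CPM in replicate 6 and was listed at 0 in the other 4. Replicate 5 was the lowest CD4 T cell sample. Summed over the 6 samples, 134 counts in CD4 T cells stood against 5 in CD8 T cells, which puts CD8 T cells at 3.69% of the CD4 T cell level (95% exact interval 1.18 to 8.83%, counting error only). The fitted log2 fold change was -4.53 ± 0.83 (SE) with an adjusted p of 0.0219 by edgeR, and its size depends on the small count that the fit adds to the samples at 0. Without replicate 5 it was -4.47 (adjusted p of 0.0231). In an edgeR fit that also took the replicate number into account, the transcript was not called (adjusted p of 0.0553). The other sorted types held 0.142 to 0.292 CPM on average, above the CD8 T cell mean of 0.0725 CPM and far below that of CD4 T cells.

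ENSRNOT00000051471 followed, with 5.27, 4.18, 2.93, 2.25, 1.33 and 4.87 CPM in CD4 T cell replicates 1 to 6, a mean of 3.47 ± 1.55 (SD, n = 6). In CD8 T cells it was at 0.209, 0.399, 1.09, 0.380, 0.762 and 0.320 CPM, a mean of 0.527 ± 0.334 (SD, n = 6). The gap was narrow, between 1.33 CPM in CD4 T cell replicate 5 and 1.09 CPM in CD8 T cell replicate 3. The log2 fold change was -2.67 ± 0.43 (SE), so that CD4 T cells were 6.34-fold higher, with an adjusted p of 0.0135 by edgeR. Without replicate 5 it was -2.95 (adjusted p of 0.00782). This transcript, too, was not called in the edgeR fit with the replicate number (adjusted p of 0.0618). NK cells (0.685 CPM) and B cells (0.689 CPM) held levels near those of CD8 T cells, and neutrophils held the least of the sorted types (0.0719 CPM).

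**Figure D2:**
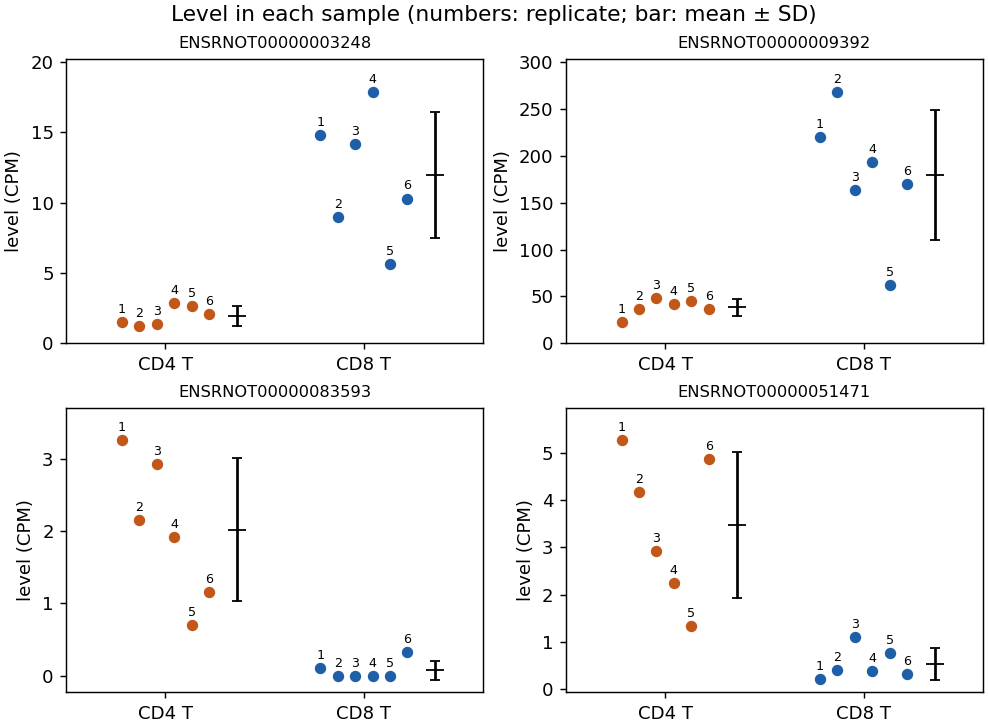
The level (CPM) of the 4 named transcripts in each CD4 and CD8 T cell sample, 1 panel for each transcript, with points numbered by replicate and bars for the mean and SD of 6 samples. The 2 types do not overlap in any panel, and replicate 5 is the sample of the higher type that lies closest to the other in all 4.

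More transcripts were called when replicate 5 was left out. Without replicate 5 of each type, 214 of 13883 transcripts (1.54%) passed the same edgeR test, 108 (0.778%) higher in CD8 T cells and 106 (0.764%) higher in CD4 T cells. The smallest adjusted p-value fell to 0.00082. Of the 126 transcripts called with all samples, 124 (98.4%) were called again and made up 57.9% of the 214, which leaves 90 transcripts called after replicate 5 was left out. The median log2 fold changes were 0.91 and -0.92, close to those with all samples, and the differences of at least 2-fold among the called transcripts came to 95, with 51 higher in CD8 and 44 higher in CD4 T cells. Transcripts with no overlap numbered 387 (2.79%), with CD8 T cells above for 211 (1.52%) and CD4 T cells above for 176 (1.27%). The biological coefficient of variation that edgeR estimates, the spread between samples beyond counting error, was 0.302 with replicate 5 and 0.276 without.

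No other replicate number raised the count of called transcripts when it was left out. Leaving out both samples of number 1, 2, 3, 4 or 6 left 1, 14, 21, 36 and 21 called transcripts, each fewer than the 126 of all samples. These fits tested 13926 to 14027 transcripts, against 13982 with all samples. Transcripts with no overlap behaved otherwise, at 211, 322, 223, 263 and 233 without these numbers, each above the 152 of all samples. Fewer samples are separated more easily, so this count rose whichever number was left out. Leaving out 1 sample at a time gave 46, 63, 68, 73, 178 and 55 called transcripts without CD4 T cell replicates 1 to 6 in that order. It gave 51, 83, 60, 47, 171 and 69 without CD8 T cell replicates 1 to 6. Replicate 5 was thus the sample of each type whose absence raised the count, and every other absence lowered it. Of the 126 transcripts, 40 were called in all 12 of these fits, 18 higher in CD8 and 22 higher in CD4 T cells, and 68 were called in 6 or fewer. None changed sign in any of the 12, but each of these fits kept all but 1 of the samples that chose the transcripts. A change of sign was therefore hardly possible. The number of called transcripts thus varied widely with the samples used.

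**Figure D3:**
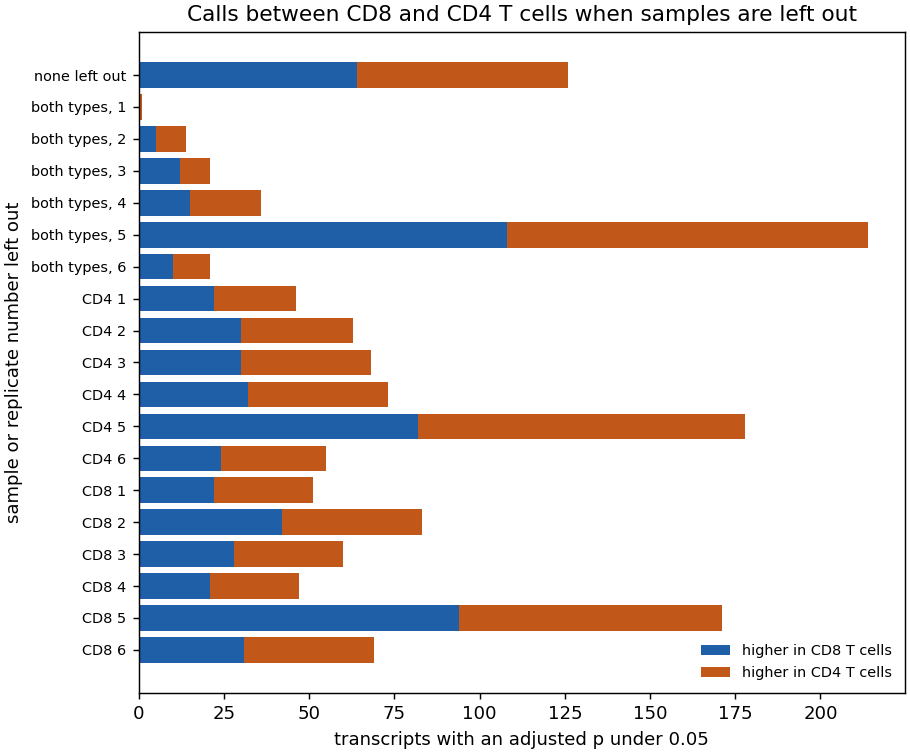
The number of called transcripts (edgeR, adjusted p under 0.05) when 1 sample or both samples of 1 replicate number are left out, with a first bar for the 126 of all 12 samples. Leaving out number 5 gives 214, and leaving out number 1 gives 1.

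Transcripts chosen without a replicate number were then read in the 2 samples of that number. The 50 transcripts with the lowest p in each direction were taken from the other 5 numbers, and the CD8 T cell sample was compared with the CD4 T cell sample left out with it. Of the 100 transcripts, 99, 97, 96, 97, 87 and 99 differed in the direction of their choice for numbers 1 to 6. The lowest count, 87, was that of number 5. Its median log2 difference was 0.19 for the transcripts chosen as higher in CD8 T cells, against 1.06 in the samples they were chosen from. The other numbers had medians of 0.79 to 1.23. For the transcripts chosen as higher in CD4 T cells it was -0.39 in number 5, against -0.86 in the samples they were chosen from, and -1.14 to -0.53 in the other numbers. The difference between the types had its direction in replicate 5 for most transcripts but was the smallest of the 6 numbers.

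Each sample left out was placed on a scale from 0%, the mean of the remaining CD4 T cell samples, to 100%, the mean of the remaining CD8 T cell samples. On the transcripts higher in CD8 T cells, CD8 T cell replicate 5 had a median position of 48.2% and CD4 T cell replicate 5 one of 34.8%. The other CD8 T cell samples lay at 72.0 to 131% and the other CD4 T cell samples at -18.8 to 11.5%. Both samples of replicate 5 thus lay between the types here, with 25 of the 50 transcripts of the CD8 T cell sample and 38 of the 50 of the CD4 T cell sample nearer to their own type. On the transcripts higher in CD4 T cells, CD4 T cell replicate 5 lay at 44.7%, the farthest of its type from 0%, with replicate 4 at 30.6%. CD8 T cell replicate 5 lay at 85.4%, within the 65.6 to 116% of the other CD8 T cell samples. It was therefore the CD4 T cell sample, and not the CD8 T cell sample, that moved toward the other type on these transcripts.

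**Figure D4:**
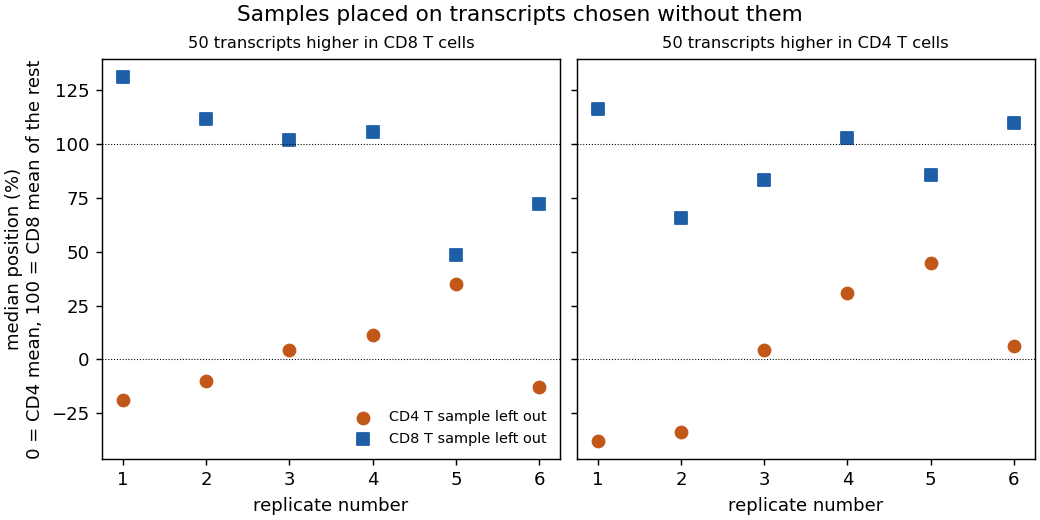
The median position of each sample on the 50 transcripts higher in CD8 T cells and the 50 higher in CD4 T cells that were chosen without its replicate number, where 0% is the mean of the remaining CD4 T cell samples and 100% that of the remaining CD8 T cell samples. The 2 samples of replicate 5 lie at 34.8% and 48.2% on the first, closer to each other than any other pair of the same number.

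The transcripts called without replicate 5 were also read in the 2 samples of replicate 5. They include the 50 in each direction read above for number 5, so the 2 readings are not independent. Of the 108 higher in CD8 T cells, 82 differed in that direction between the 2 samples of replicate 5, with a median log2 difference of 0.13 against 0.77 in the other samples. Of the 106 higher in CD4 T cells, 98 kept their direction, with a median of -0.36 against -0.84. The difference was smaller in replicate 5 for 108 of 108 and for 99 of 106. The transcripts were chosen on the other samples, which favours larger differences there.

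The T cell types were set beside the other lymphocytes of the same spleen sort. By the same test, 1252 transcripts (8.85%) differed between NK and CD8 T cells and 1929 (13.6%) between NK and CD4 T cells. Between B and CD8 T cells there were 1887 (13.5%), between B and CD4 T cells 2290 (16.3%) and between B and NK cells 1523 (10.8%). The 126 transcripts (0.901%) of CD4 against CD8 T cells were the fewest of the 6 pairs by this test. When edgeR tested for more than 1.5-fold this order did not hold, with 2 transcripts for the T cell types and 0 for B and CD8 T cells, for which 1000 had an unadjusted p under 0.05. Without replicate 5 of every type the 5 other pairs gave 1772 (12.6%), 2069 (14.6%), 2546 (18.3%), 2456 (17.6%) and 1790 (12.7%) in the same order, against 214 (1.54%). A fitted difference of at least 2-fold was found for 2.08% of transcripts between the T cell types, compared with 6.31 to 7.69% for the other pairs. The pairs share samples, and the difference between these counts was not tested.

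NK and B cells, none of whose samples entered the T cell comparison, were then used to read the called transcripts. Of 63 transcripts higher in CD8 T cells that were tested in both, 38 (60.3%) were higher in NK than in B cells and 1 (1.59%) was higher in B cells. Over all transcripts tested between NK and B cells, 6.4% were higher in NK and 4.36% higher in B cells, and over those also tested between the T cell types 5.97% and 4.48%. Of 55 transcripts higher in CD4 T cells, 4 (7.27%) were higher in NK cells and 9 (16.4%) in B cells. The median log2 fold change of B over NK cells was -0.89 for the first list, 0.27 for the second and 0.00 over all transcripts tested in both. The transcripts higher in CD8 T cells thus had a share higher in NK cells well above the 6.4% of all transcripts. Those higher in CD4 T cells had a share higher in B cells above the 4.48% of all tested in both. Of these, 42 of 55 were called in neither direction, against 12260 of 13690 over all transcripts tested in both. The 38 transcripts were 4.65% of the 817 higher in NK cells, against 0.458% called higher in CD8 T cells over all transcripts tested. Most of the 817, like most transcripts of any kind, were not called between the T cell types. Without replicate 5 in either comparison, 57 of 103 (55.3%) were higher in NK cells, against 6.81% of all transcripts tested in both. Of 96 transcripts higher in CD4 T cells, 8 (8.33%) were then higher in NK cells, near that share, and 21 (21.9%) in B cells, against 5.41%.

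**Figure D5:**
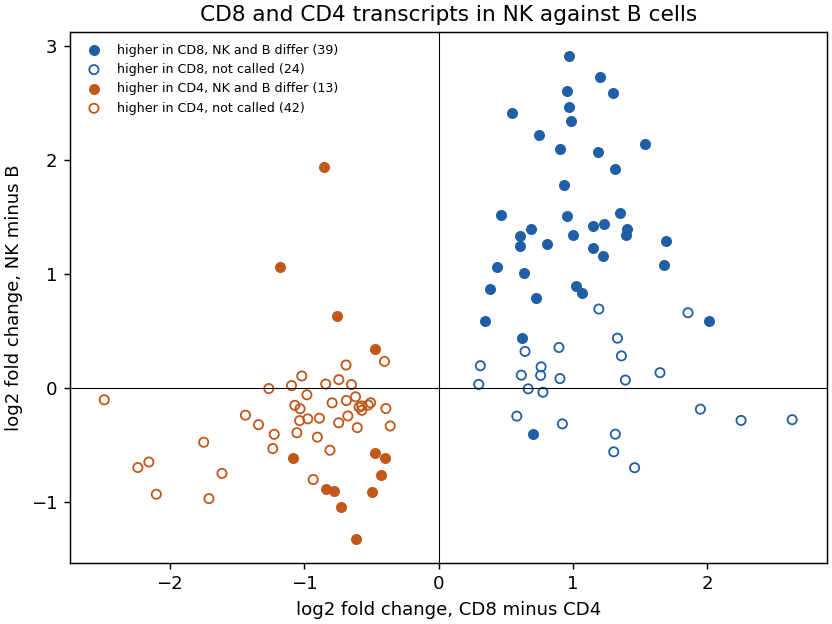
The log2 fold change of CD8 over CD4 T cells (x axis) against that of NK over B cells (y axis) for the transcripts called between the T cell types that were tested in both, 63 higher in CD8 and 55 higher in CD4 T cells. Most transcripts higher in CD8 T cells lie above 0, on the NK side, as their median for B over NK cells was -0.89.

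The NK list, which was made from the same NK and B cell samples and from no T cell sample, was also read in the T cell comparison. Of its 136 transcripts, 19 were called higher in CD8 T cells and 1 higher in CD4 T cells, against 0.458% and 0.443% of all transcripts tested. Its median log2 fold change was 0.25, against 0.00 over all transcripts. Its sum was 6094 to 7479 CPM in the CD8 T cell samples and 4802 to 5840 CPM in the CD4 T cell samples, without overlap. NK cell samples held 7620 CPM in replicate 5 and up to 39340 CPM in the others. Of the 72 transcripts of the B cell list, 0 were called by edgeR in either direction, with a median of 0.02, although its sums ranged from 1981 to 6496 CPM among T cell samples. The monocyte list had 2 higher in each type among 310 tested, and the neutrophil list had 3 higher in CD8 and 2 higher in CD4 T cells among 291 tested. The counts of these 3 lists were small and are not read as differing from the shares over all transcripts. NK cells in the CD8 T cell gate and NK transcripts made by CD8 T cells cannot be told apart in these values.

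Among the 6 sorted types, the transcripts higher in CD8 T cells were most often highest in NK cells. Of the 64, 34 (53.1%) had their highest mean in NK cells and 18 (28.1%) in CD8 T cells, against 19.6% and 13.8% of all transcripts tested, with 7 in neutrophils, 3 in monocytes, 2 in B cells and 0 in CD4 T cells. Their median level was 39.5 CPM in NK cells, 30.6 CPM in CD8 T cells, 17.2 CPM in CD4 T cells and 15.3 CPM in B cells. Of the 62 transcripts higher in CD4 T cells, 47 (75.8%) had their highest mean in CD4 T cells, against 19.8% of all transcripts, 8 in neutrophils, 5 in monocytes and 2 in NK cells. Their median level was 16.0 CPM in CD4 T cells and 7.04 to 9.42 CPM in the other types. The 2 directions thus differed in where else the transcripts were found, although the choice of members itself sets the order of the T cell types. That choice also raises the share highest in the type the members were chosen for. The 28.1% and 75.8% are therefore no support for a difference from all transcripts.

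Most transcripts that were highest in a T cell type were present in the other sorted types, but many were low in liver. For the 18 that were highest in CD8 T cells, the median level relative to CD8 T cells was 67.4% in NK cells, 45.7% in B cells, 38.0% in CD4 T cells, 23.9% in monocytes and 19.8% in neutrophils. In the control livers it was 0.965%. Of the 18, 14 were under 10% of the CD8 T cell level in liver, and at most 2 in any other sorted type. For the 47 that were highest in CD4 T cells, it was 48.7% in CD8 T cells, 45.4% in B cells, 39.8% in NK cells, 28.8% in monocytes, 30.9% in neutrophils and 9.35% in the livers. Of these 47, 25 were under 10% of the CD4 T cell level in liver, and at most 3 in any other sorted type.

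Whole spleen and WBC, 5 samples each, were read in the same way. Over all transcripts tested, 22.7% were higher in spleen and 23.9% in WBC, so these tissues differed widely. Of 62 transcripts higher in CD8 T cells, 29 (46.8%) were higher in spleen and 9 (14.5%) in WBC. Of 58 transcripts higher in CD4 T cells, 7 (12.1%) were higher in spleen and 27 (46.6%) in WBC. The 2 lists thus leaned to opposite tissues, each above the background share of the tissue it leaned to and below that of the other. With the lists called without replicate 5, the shares were 40.2% in spleen and 17.6% in WBC of 102 transcripts, and 11.1% and 43.4% of 99. In such bulk samples, fewer cells of a type and less RNA per cell cannot be told apart.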

How the data were processed

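The authors trimmed reads of a directional library, quantified transcripts with Salmon 1.6.0 on Ensembl cDNA and imported them with tximport; the submitters' processing notes name Rnor_6.0 and mRatBN7.2. Although the methods speak of TPM, the sample totals of the deposited values differ as library sizes do, and the values were used as estimated counts. They were rounded to whole numbers for the tests. All columns were matched to samples by name, and 0 stayed unassigned.

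CPM, the count scaled to a sample total of 1000000, was computed from the deposited estimated counts. Transcripts that averaged 1 CPM or more in the samples compared were tested with edgeR 4.0.16 (R 4.3.3; TMM, quasi-likelihood test), with Benjamini-Hochberg adjustment over all transcripts tested and a threshold of 0.05. Alternatives used limma 3.58.1 and DESeq2 1.42.0. Isoforms of a gene share reads, so that the counting can split them. The procedure was tested on simulated data.

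Of 31196 transcripts, 0 had a gene name, and the lists of markers by symbol could not be used. Named transcripts were the 2 largest log2 fold changes in each direction among called transcripts without overlap between the types. For the lists of other cell types, 2-fold replaced 8-fold after the data were seen, because 0 B cell transcripts met 8-fold. At 8-fold the lists held 20 NK, 1 monocyte and 38 neutrophil transcripts, of which 1 NK transcript was higher in CD8 T cells and 0 others were called. The held-out lists were also added after seeing the data. The comparison and its lists were chosen with earlier results of these data known. Intervals on counts cover counting error only.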

Additional observations from a re-analysis of the deposited data

Results flagged for a closer look

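In CD8 T cell replicate 6, ENSRNOT00000083593 was at 0.328 CPM, apart from the other 5 CD8 T cell samples, of which the nearest was at 0.107 CPM and the lowest at 0. The gap was 0.673 of the range of the 6 samples, above Dixon's critical value of 0.625. Of 26 groups of 6 samples examined in this way, 1 stood out, and chance alone gives about 1 in 20. The value rests on a few counts, since all CD8 T cell samples together held 5.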

How the results depend on the processing

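The count of 126 transcripts was 294 with DESeq2, 79 with a minimum mean of 10 CPM and 2 when edgeR tested for more than 1.5-fold. It ran from 1 to 214 as samples were left out. The count of 214 without replicate 5 was 395 with DESeq2, 142 without TMM, 138 with limma and a pseudocount of 0.1 CPM, 140 without a filter, 134 at 10 CPM and 20 beyond 1.5-fold. Beyond 1.5-fold there were 337 transcripts for NK and CD8 T cells, 550 for NK and CD4 T cells, 57 for B and CD4 T cells, 280 for B and NK cells and 0 for B and CD8 T cells by edgeR, with 1000 of the last at an unadjusted p under 0.05. The share of B-high transcripts was 0% without TMM and 0.971% without replicate 5 for those higher in CD8 T cells, and 27.3% at 10 CPM for those higher in CD4 T cells. No fold change or difference changed sign, but beyond 1.5-fold B and CD8 T cells replaced the T cell types as the pair with the fewest transcripts. The causes of these changes were not tested.

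CD4 and CD8 T cell samples of the same number deviated together unevenly, with r of 0.32, 0.48, -0.02, 0.11, 0.57 and 0.28 for numbers 1 to 6. Since r did not pass 0.1 for number 3, the samples were not paired in the main comparison. The labels do not say whether samples of the same number shared an animal. Both samples of numbers 1, 2, 5 and 6 and CD4 T cell replicate 4 correlated best with their own number. Both samples of number 3 and CD8 T cell replicate 4 did not. With the replicate number as a block, 171 transcripts were called, 70 higher in CD8 and 101 higher in CD4 T cells, of which 77 were among the 126. ENSRNOT00000083593 and ENSRNOT00000051471 were then not called by edgeR, with adjusted p-values of 0.0553 and 0.0618. Without replicate 5 the block gave 265. With all samples, 2360 transcripts had an unadjusted p under 0.05 in the block fit by edgeR, against 1215 in the main comparison.

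The 4 named transcripts kept their direction in all alternatives that tested them and were called in 26 of 27, 24 of 28, 14 of 21 and 21 of 27 fits, in the order given. A transcript under the minimum mean of a fit was not tested in it, so the number of fits differs. ENSRNOT00000083593, at a mean of 2.02 CPM in CD4 and 0.0725 CPM in CD8 T cells, was left untested most often. Depth limits the low transcripts, since intervals lay within 2-fold for 40.8% of those at 1 to 3 CPM.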
